A study of Homo sapiens with 6 samples.

Results

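The nuclear genes for the subunits of oxidative phosphorylation were examined in HCC827 cells treated with erlotinib. They were found by symbol in the table of 28395 genes, as every row named for a subunit of NADH dehydrogenase (NDUFA, NDUFB, NDUFC, NDUFS and NDUFV), succinate dehydrogenase (SDHA to SDHD), the cytochrome bc1 complex (UQCR and CYC1), cytochrome c oxidase (COX4 to COX8) or ATP synthase (ATP5). This gave 95 rows. Of these, 86 were subunit genes: 23 for core subunits, 54 for supernumerary subunits and 9 for isoforms. The other 9 rows were 2 related genes (COX7A2L, a supercomplex factor, and ATP5IF1, the inhibitor of ATP synthase), 2 readthrough genes, 2 pseudogenes, 2 antisense genes and 1 divergent transcript. NDUFA4 and NDUFA4L2 were placed in complex IV, since the NDUFA4 protein is now known as a subunit of cytochrome c oxidase.

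HCC827 is a lung adenocarcinoma cell line whose EGFR carries an activating deletion in exon 19, and erlotinib inhibits the EGFR tyrosine kinase. Cells received the vehicle DMSO (libraries DMSO1 to DMSO3) or 1 μM erlotinib (Erlo4 to Erlo6) for 24 h, with 3 libraries in each group, and the mRNA was sequenced in this 1 line only. The libraries held between 20760204 reads (Erlo5) and 24641819 reads (DMSO2) counted in genes. The study says in general terms that experiments were repeated independently, but no source used here says whether the libraries of a group came from separate cultures, so p-values measure the spread between these libraries, which may be technical. The epithelial label held: EPCAM stood at 9852 ± 235 signal units in DMSO and 9485 ± 281 with erlotinib (SD, n = 3), and CDH1 at 27824 ± 967 and 30609 ± 633. Defining markers of blood cells (PTPRC, CD3E and LYZ) and the fibroblast markers COL1A2 and PDGFRB were at or near 0 in every library. Of 4 fibroblast markers 1 was tested and higher, COL1A1 (77.7 to 216 signal units). LUM, too low to be tested, had 2, 4 and 6 reads in DMSO and 10, 10 and 20 with erlotinib. The fibroblast list summed to 71.5, 75.2 and 107 units in DMSO and 257, 223 and 213 with erlotinib. Of 3 endothelial markers VWF stood at 3.94 and 27.4 units and passed the filter on low values only through the erlotinib libraries, and the list summed to 15.8 to 34.0 units in DMSO and 42.6 to 58.1 with erlotinib. The 3 blood markers summed to at most 12.2 units in any library. Of 6 epithelial markers 4 were lower, among them KRT18 (18755 to 7876). Their part in the results was not tested.

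Oxidative phosphorylation takes place in the inner mitochondrial membrane. Complexes I and II pass electrons from NADH and succinate to coenzyme Q, complex III passes them to cytochrome c, and complex IV passes them to oxygen. Complexes I, III and IV pump protons, and complex V, the ATP synthase, makes ATP as protons flow back. A small set of core subunits is made in the mitochondrion from its own genome, so each complex except complex II needs transcripts from both genomes. Tumor cells use the pathway for ATP and for the NAD and aspartate that growth requires.

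Most subunit genes were lower after erlotinib. Values are signal, the reads of a gene divided by 1 size factor per library, and fold changes are differences of mean log2(signal + 1), erlotinib minus DMSO. Of the 86 subunit genes, 79 had a mean signal of at least 10 and were tested with limma across 14215 genes. Of these, 52 were lower (65.8%) and 2 were higher (NDUFA4L2 and ATP5MC2) at a Benjamini-Hochberg adjusted p under 0.05, and 25 did not pass. The response to erlotinib was broad: 70.7% of all genes tested passed, 35.4% as lower and 35.3% as higher. The median change was -0.50 for the subunit genes and 0.02 for all genes tested. With libraries scaled to their total count, these medians were -0.32 and 0.19. That scaling gave 42 lower and 5 higher subunit genes, and 3955 lower and 6156 higher among all genes tested. In 52 subunit genes every erlotinib library was below every DMSO library (36.9% of all genes tested), and in 3 every one was above (36.7% of all genes tested, or 73.6% in either direction). The falls were moderate. A total of 5 genes fell by 1 log2 unit or more (10.8% of all genes tested): ATP5MC1, NDUFS6, ATP5MF, NDUFB3 and CYC1. Core subunits (15 of 23 lower, median -0.55) and supernumerary subunits (36 of 52 tested lower, median -0.47) were not tested against each other. In bulk RNA, fewer cells that express a gene and less RNA per cell cannot be told apart.

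**Figure D1:**
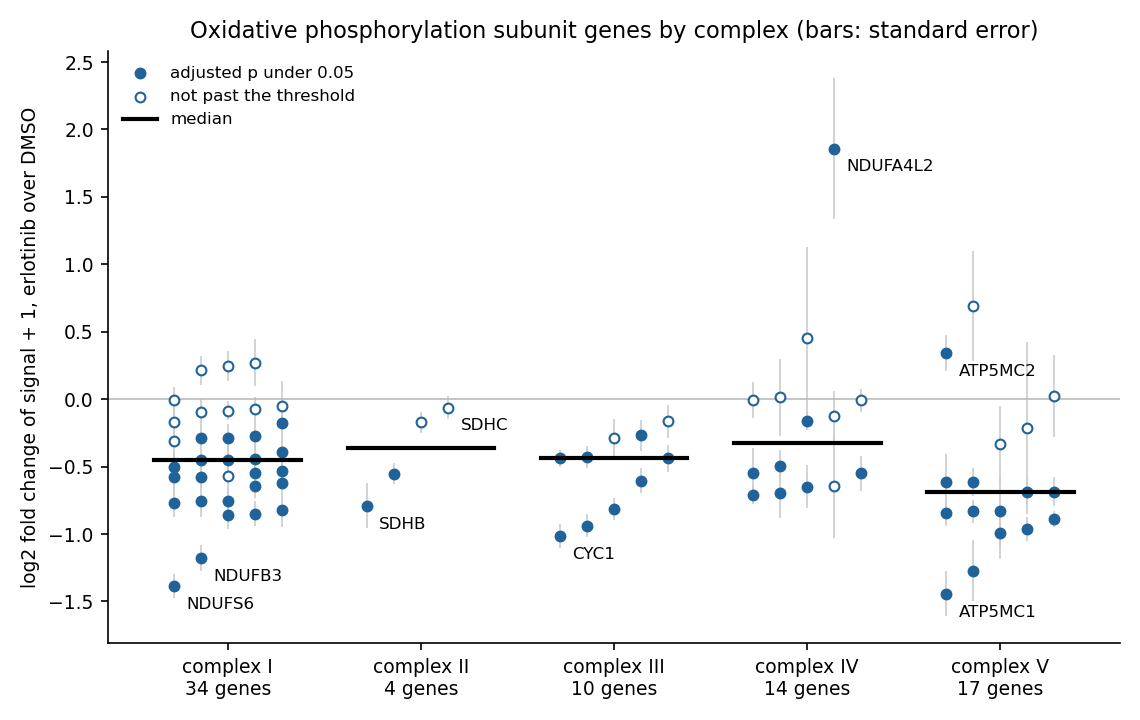
Log2 fold change (erlotinib over DMSO, on log2 of signal + 1) of the 79 tested subunit genes, 1 point per gene grouped by complex, with the standard error as a bar and the median of each complex as a black line. Filled points passed an adjusted p of 0.05; all 5 medians are below 0, and NDUFA4L2 at 1.86 and ATP5MC2 at 0.34 are the 2 filled points above it.

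The summed signal of all subunit genes was 98928, 99382 and 97789 in the DMSO libraries and 67366, 69018 and 67031 with erlotinib. The groups were far apart, and the sum fell by 31.3%. As a share of the whole library it went from 0.428% ± 0.00866 to 0.333% ± 0.00276 (SD, n = 3). Leaving out ATP5F1B, the member with the highest signal, the sum fell by 28.5%. Complex V had the deepest fall of its sum, 43.5%, followed by complex III with 32.8%, complex IV with 26.3%, complex I with 23.9% and complex II with 22.1%. These sums lean on single genes: without the member of highest signal in each, a comparison chosen after seeing the data, complex IV fell by 13.2% (without COX8A), complex II by 11.8% (without SDHD), complex I by 26.2%, complex III by 38.3% and complex V by 39.6%. As shares of the library the falls were smaller, 36.0% for complex V, 23.9% for III, 16.6% for IV, 13.8% for I and 11.7% for II. The medians of the single genes gave another order below complex V: -0.69 for complex V, -0.45 for complex I, -0.44 for complex III, -0.36 for complex II and -0.33 for complex IV. The order of the medians below complex V was not fixed: complex IV stood at -0.49 with no filter and at -0.14 with the correction for GC content and length, and complex III passed complex I without DMSO2 (-0.49 against -0.46). These orders are descriptions of unequal gene sets, and differences between complexes were not tested.

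**Figure D2:**
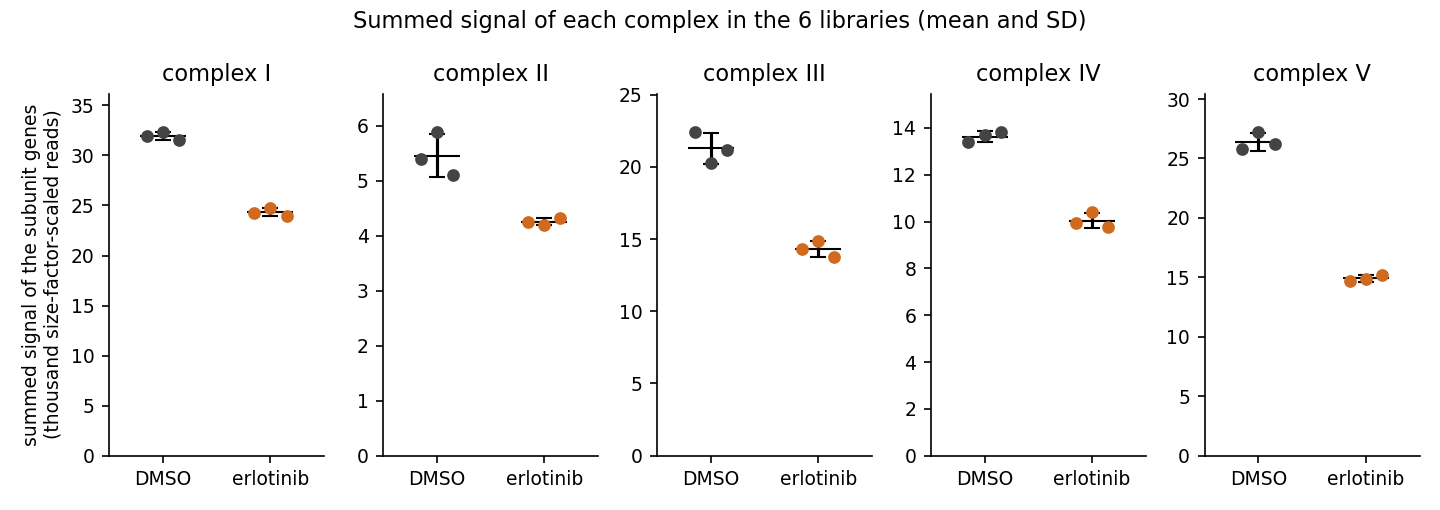
Summed signal of the subunit genes of each complex (size-factor-scaled reads in units of 1000, axes from 0), 1 point per library, with the mean and SD of the 3 DMSO and 3 erlotinib libraries. In each of the 5 complexes the erlotinib libraries are below all DMSO libraries, and the fall is deepest for complex V (43.5%).

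Complex I takes electrons from NADH at the tip of its matrix arm and carries them along iron-sulfur clusters to coenzyme Q. Of its 36 genes 34 were tested; 23 were lower in limma and 11 did not pass. NDUFS6 (5:1801407-1816048, GRCh38), a small zinc-binding subunit of the NADH-oxidising module, had 1271, 1268 and 1186 signal units in the DMSO libraries and 455, 499.9 and 472 with erlotinib. All 3 treated libraries were below 500, and the change of -1.38 ± 0.09 (SE) had an adjusted p of 2e-11. NDUFS6 lies head to head with MRPL36, a mitochondrial ribosomal protein gene whose change was -1.26, and their annotated spans overlap. NDUFB3 (2:201072001-201085750), a subunit of the distal membrane arm, went from 846, 899 and 946 to 395, 402 and 389, a change of -1.18 ± 0.10. It was below its lowest DMSO value by more than the whole spread of either group.

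By module, 6 of 9 tested genes of the NADH-oxidising (N) module were lower (median -0.50), 4 of 6 of the quinone-binding (Q) module (median -0.64), 6 of 8 of the proximal membrane arm (median -0.37) and 7 of 11 of the distal membrane arm (median -0.31). Within the N module NDUFS1, the largest core subunit with 3 of the clusters, fell by 0.50 on the log2 scale. NDUFV1, which holds the flavin that accepts electrons from NADH, did not pass (3591 ± 291 to 3379 ± 68.0, adjusted p = 0.29). NDUFA12 fell by 0.86. In the Q module the core subunits NDUFS3 (-0.82), NDUFS8 (-0.77) and NDUFS7 (-0.53) were lower, as was the accessory subunit NDUFA9 (-0.75). In the proximal membrane arm NDUFA13, also known as GRIM-19, was above its DMSO values in every erlotinib library without passing (419 ± 26.9 to 486 ± 26.6, adjusted p = 0.083). It was called higher under total-count scaling (0.39, adjusted p = 0.0037). In the membrane arm NDUFB6 (-0.85), NDUFC2 (-0.75), NDUFB9 (-0.64) and NDUFA8 (-0.62) were among the lower genes. NDUFA1, an early membrane-arm subunit and the member with the highest signal per kilobase of coding sequence in the complex, fell by 0.28, from 1117, 1374 and 1020.0 to 927, 995 and 939.8. That call was lost with the correction for GC content and length (-0.0209, adjusted p = 0.83), under total-count scaling (-0.11, adjusted p = 0.36), without DMSO2 (-0.16, adjusted p = 0.064) and without Erlo4 (-0.26, adjusted p = 0.0551).

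Complex II is succinate dehydrogenase of the TCA cycle, and all of its subunits are nuclear. Its 4 genes were not alike. SDHB, the iron-sulfur subunit, had 289, 229 and 260.1 signal units in DMSO and 187, 127 and 139 with erlotinib, so that the groups did not overlap (-0.79 ± 0.17, adjusted p = 0.00028). SDHD, a membrane anchor, went from 2774, 3046 and 2445 to 1879.8, 1850.2 and 1879 (-0.55 ± 0.08, adjusted p = 2.8e-06), a change that was -0.24 with the correction for GC content and length. SDHA, the flavoprotein, had 1425, 1579.7 and 1507 and then 1289, 1292 and 1425, just short of overlap, and did not pass (-0.17 ± 0.08, adjusted p = 0.060). SDHA was called lower in 6 of 17 alternatives, among them edgeR with TMM (adjusted p = 0.037) and the GC correction (adjusted p = 0.013). It was not called by edgeR with DESeq2-type size factors, and stood at 0.00783 under total-count scaling. SDHC, the other anchor, was at 938 ± 74.7 and 897 ± 21.1 (-0.06 ± 0.09, adjusted p = 0.54). Of the 50-base windows of their coding sequence, 66.8% for SDHD, 44.04% for SDHC and 19.58% for SDHA are also found elsewhere in the genome, against 0% for SDHB.

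Complex III had 10 genes, all tested, of which 8 were lower and 0 higher in limma (0 also at an unadjusted p under 0.05 and in edgeR and DESeq2). The 8 include UQCRHL, an intronless copy of UQCRH annotated as protein-coding, which held 9673 of the 21282 DMSO units of the complex. The copy ATP5F1EP2, annotated as a pseudogene, was not counted in complex V. The catalytic pair changed most. CYC1, cytochrome c1, which hands electrons to cytochrome c, had 4094, 3067 and 3804 signal units in DMSO and 1775, 1899.8 and 1720.5 with erlotinib (-1.01 ± 0.09, adjusted p = 2.1e-09). UQCRFS1 (19:29205320-29213151), the Rieske iron-sulfur protein, went from 1224, 1139 and 1107 to 610.0, 602 and 597 (-0.94 ± 0.09, adjusted p = 5.6e-09), and its treated libraries lay within 13 units of each other. For UQCRFS1, 61.3% of coding windows also occur elsewhere. The core proteins, which face the matrix, moved less: UQCRC1 fell by 0.44 and UQCRC2 by 0.27, the latter with overlapping groups. Of the small subunits UQCR10 fell by 0.81, UQCR11 fell by 0.60 and UQCRQ fell by 0.43, and UQCRB was at 307 ± 9.46 and 274 ± 1.89 (adjusted p = 0.24).

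Complex IV had 18 genes and 14 were tested, of which 7 were lower and 1 was higher. All lower genes were among the 11 subunits used in most tissues (median -0.49). COX8A (11:63974620-63976543), the smallest ubiquitous subunit and the member with the highest signal per coding kilobase in this complex, had 7051, 6736 and 7181 signal units in DMSO and 4199, 4512 and 4114 with erlotinib (-0.71 ± 0.06, adjusted p = 4e-09). COX7A2 went from 136, 174 and 156 to 107, 84.1 and 95.5 (-0.70 ± 0.19, adjusted p = 0.0024). COX7B fell by 0.65, COX5A by 0.55, COX6B1 by 0.55 and NDUFA4 by 0.49. The COX6B1 call was lost without DMSO2 (-0.43, adjusted p = 0.054) and under total-count scaling (-0.37, adjusted p = 0.082), and that of NDUFA4 with the GC correction (-0.21, adjusted p = 0.051). COX4I1, an early assembling subunit that takes part in regulation by ATP, changed little (3512 ± 131 to 3139 ± 79.8, -0.16 ± 0.07, adjusted p = 0.035), and 3 of the 6 fits with 1 library left out lost its call (adjusted p = 0.13 without Erlo4, 0.063 without Erlo5 and 0.090 without Erlo6). The call was also lost with the GC correction (-0.0715, adjusted p = 0.22), and the change stood at 0.0181 under total-count scaling (adjusted p = 0.81). COX5B (1040.0 and 1032), COX7C (257 and 255), COX6C (128 and 116) and COX6A1 (71.8 and 74.8) did not pass. With the GC correction COX7C was called higher. Of the coding windows, 39.9% for COX7C and 64.4% for COX6A1 also occur elsewhere, against 0% for COX5B and COX6C.

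Few reads were counted for the tissue isoforms of complex IV. COX4I2, the lung and hypoxia isoform, and COX6A2, the muscle isoform, were at 0 reads in all 6 libraries, where up to 3 reads per library cannot be told from 0 by counting error. COX7B2 had reads in DMSO1 only. COX7A1, the muscle isoform, was at 10.3 ± 7.01 and 12.2 ± 5.39 signal units and the testis isoform COX6B2 at 40.0 ± 11.8 and 26.2 ± 11.4, and neither passed. NDUFA4L2 (12:57234903-57240762), a paralog of NDUFA4 known as a target of HIF-1, was the largest rise among all subunit genes. It had 19, 4 and 13 reads in DMSO and 33, 73 and 34 with erlotinib, or 21.6, 3.71 and 13.9 against 30.5, 72.3 and 31.8 signal units. The groups did not overlap (1.86 ± 0.53, adjusted p = 0.0036), with Erlo5 well above the other libraries, and the change was 1.21 without DMSO2 (adjusted p = 0.017). Its span overlaps that of SHMT2, the mitochondrial serine hydroxymethyltransferase, at a mean signal of 4751 and a change of -0.58, and reads shared between them were not tested. COX7A2L, which joins complexes III and IV in supercomplexes, was at 2989 ± 177 and 2989 ± 94.0 (0.00 ± 0.07, adjusted p = 0.99). It was higher when libraries were scaled to their total count (0.18, adjusted p = 0.029) or corrected for GC content and length (0.28, adjusted p = 2.8e-05).

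Complex V had 18 genes and 17 were tested, of which 12 were lower and 1 higher. ATP5F1B (12:56638175-56645984), the catalytic beta subunit of the F1 head, has the highest signal of all members where length is not taken into account. It had 15895, 16409.8 and 15655 signal units in DMSO and 8395, 8726 and 8762 with erlotinib (-0.89 ± 0.06, adjusted p = 3.7e-11), a gap many times the spread of either group. The alpha subunit ATP5F1A fell by 0.62 and the delta subunit ATP5F1D by 0.84. The gamma subunit ATP5F1C (39.8 and 40.9) and the epsilon subunit ATP5F1E (12.3 and 11.3) had few reads and did not pass. In the peripheral stalk, which holds the head still, 3 of 4 genes were lower: ATP5PB fell by 0.83, ATP5PF by 0.83 and ATP5PO by 0.62, while ATP5PD did not pass (-0.33, adjusted p = 0.30). Of the small membrane subunits 4 of 5 tested were lower. ATP5MF (7:99458195-99466167) went from 99.8, 149 and 170.2 to 60.0, 53.5 and 54.3 (-1.27 ± 0.23, adjusted p = 4.6e-05), and ATP5MD (-0.995), ATP5MPL (-0.69) and ATP5MG (-0.68), which join the synthase in dimers or stabilise it, were lower too. The change of ATP5MPL was -0.43 with the correction for GC content and length. The annotated span of ATP5MD overlaps that of TAF5 (mean signal 264.5, change -1.75), and reads shared between them were not tested. ATP5ME had few reads and did not pass (19.6 ± 8.24 to 30.4 ± 3.20, 0.69 ± 0.41, adjusted p = 0.14). ATP5IF1, which blocks the reverse reaction, fell by 0.64, from 1878 ± 64.7 to 1202 ± 16.8.

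Subunit c, which forms the rotating ring, is encoded by 3 genes whose mature proteins are identical and which differ in the targeting peptide. They did not move together. ATP5MC1 (17:48892787-48895871) had 289, 469.9 and 401 signal units in DMSO and 155, 126 and 138 with erlotinib, the largest fall of any subunit gene (-1.44 ± 0.17, adjusted p = 1.4e-07). ATP5MC3, the most abundant of the set in DMSO, went from 1311, 1412 and 1246 to 652, 648 and 732 (-0.96 ± 0.09, adjusted p = 4.8e-09). ATP5MC2 went from 437, 701 and 508 to 665, 643 and 740.4, with overlapping groups, and passed at 0.34 ± 0.13 (adjusted p = 0.027). Its call was lost without DMSO1 (0.19, adjusted p = 0.18), without DMSO3 (0.30, adjusted p = 0.10) or without Erlo6 (0.28, adjusted p = 0.11). The sum of the 3 genes went from 2259 ± 287 to 1500.2 ± 99.1. Within that sum ATP5MC2 held 21.4%, 27.1% and 23.6% in the DMSO libraries and 45.2%, 45.4% and 46.0% with erlotinib.

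**Figure D3:**
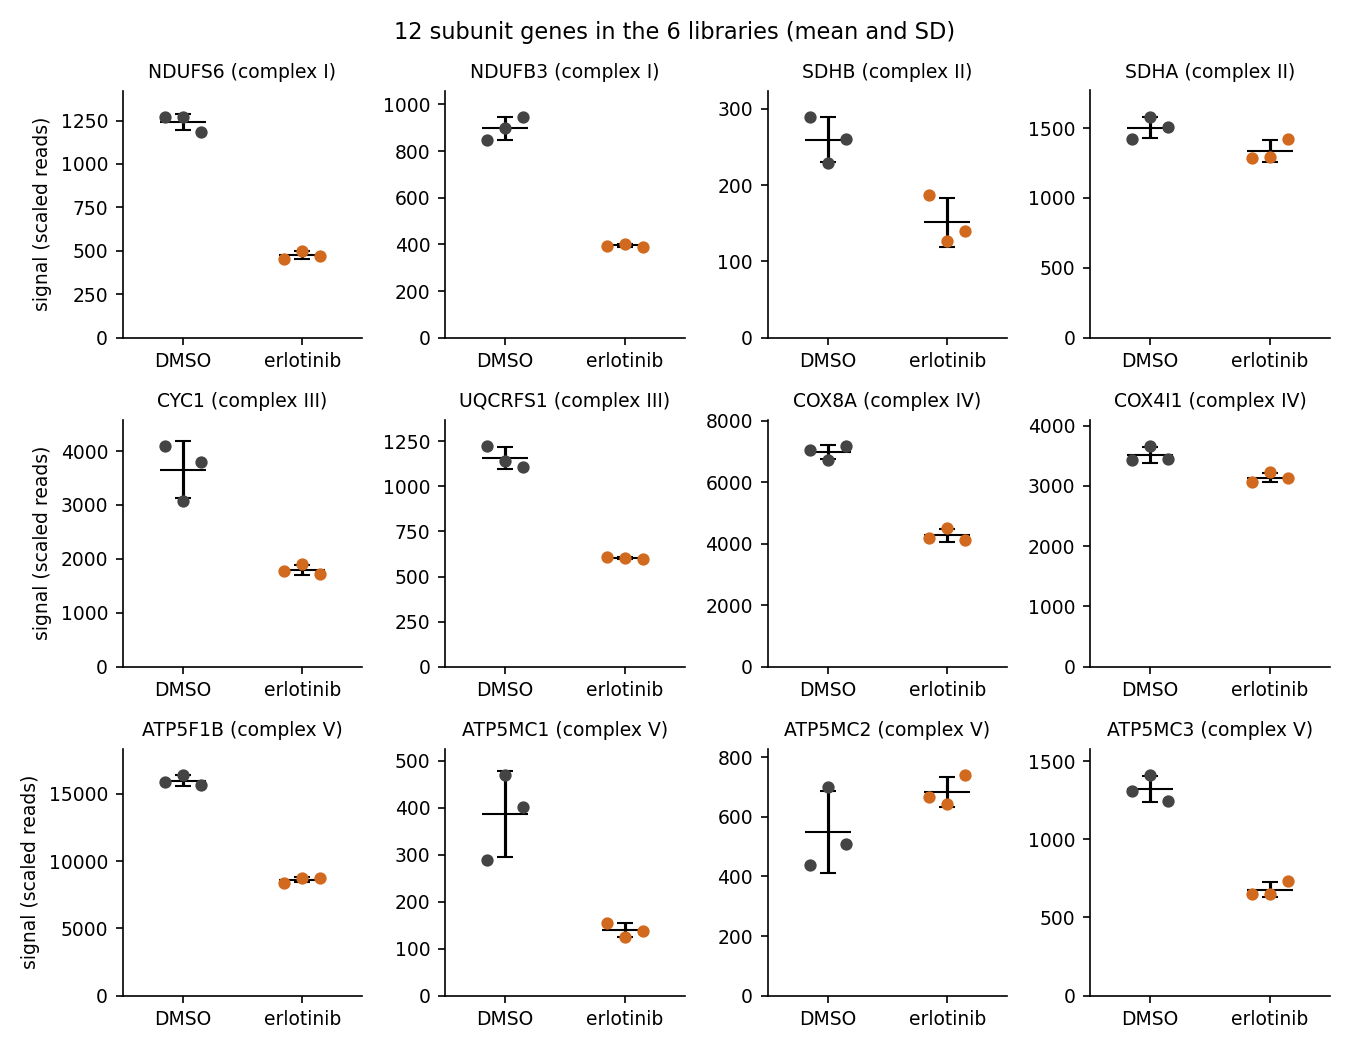
Signal (size-factor-scaled reads, axes from 0) of 12 subunit genes in each of the 6 libraries, with the mean and SD of 3 DMSO and 3 erlotinib libraries. ATP5MC2 is the gene whose erlotinib mean (683) is above its DMSO mean (549), and SDHA and COX4I1 show the smallest gaps between groups.

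Some members share sequence with near-identical copies, and their counts are uncertain. The reads were placed with Bowtie2, an aligner that keeps each read in 1 piece and so cannot bridge an intron, and only uniquely placed reads were counted. UQCRHL, an intronless copy of UQCRH on chromosome 1, had 10138, 9376 and 9504 signal units in DMSO and 7108, 7414 and 6878 with erlotinib. Its parent UQCRH, the hinge protein of complex III, had 335, 474 and 361 and then 289, 295 and 367. The copy thus held 24.8 times the signal of the gene in DMSO, and 53.7% of the coding windows of UQCRH occur whole in UQCRHL. The pseudogene ATP5F1EP2 on chromosome 13 had 4941 ± 343 and 3267 ± 144 signal units, 400.1 times the 12.3 ± 7.16 of its parent ATP5F1E in DMSO. Here the sharing was smaller: 14.02% of the coding windows of ATP5F1E occur whole in the copy, and 72.9% are unique to the gene. UQCRBP1 (254 and 261) stood close to UQCRB (307 and 274), with 6.62% of the windows of UQCRB in the copy. Stretches across exon junctions of UQCRH and ATP5F1E are shown because the copies hold them unbroken, while the genes themselves hold them in separate exons. Of the junctions searched, 2 of 3 in UQCRH, 2 of 2 in ATP5F1E, 1 of 3 in UQCRB and 0 of 2 in ATP5MG (copy ATP5MGL) were found whole in the copy. Capitals mark the downstream exon, each stretch is 30 bases, and positions are those of the copy in GRCh38.
UQCRH exons 1 and 2, in UQCRHL at chr1:15807581-15807610, minus strand: ggagatcctgaggagGAGGAAGAGGAAGAG
UQCRH exons 2 and 3, in UQCRHL at chr1:15807554-15807583, minus strand: gaggaggaattagtgGATCCCCTAACAACA
ATP5F1E exons 1 and 2, in ATP5F1EP2 at chr13:27945277-27945306, plus strand: acaggctggactcagCTACATCCGATACTC

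Summed as gene and copy, UQCRH with UQCRHL went from 10062 ± 355 to 7450 ± 236 signal units, a log2 ratio of -0.43. ATP5F1E with ATP5F1EP2 went from 4953 ± 343 to 3279 ± 144, a log2 ratio of -0.595. UQCRB with UQCRBP1 moved little, from 561 ± 34.1 to 535 ± 31.7 (-0.07). With the correction for GC content and length, the copies alone stood at -0.24 (UQCRHL, -0.44 before) and -0.26 (ATP5F1EP2, -0.595 before). How many of these reads came from each transcript was not tested. A further 4 rows, NDUFA3, NDUFA6, its divergent transcript NDUFA6-DT and COX8C, had 0 reads in all libraries; none of their 50-base windows is unique once the alternate contigs of GRCh38 are counted, while 49.5%, 72.2%, 90.4% and 72.4% are unique without them. The 2 readthrough rows were also at 0. What the zeros of these rows say of expression was not tested. Among the 46 tested subunit genes with no coding window elsewhere, 33 were lower, 1 was higher and the median was -0.48; among the 33 with such windows, 19 were lower, 1 was higher and the median was -0.54. Among the 79 tested subunit genes, levels per coding kilobase in DMSO spanned from 43.1 (COX7A1) to 35046 (UQCRHL). These levels divide reads of the whole gene by the coding length alone. Genes with unlike untranslated parts are therefore not strictly comparable by them, also where a member is named as the highest of its complex.

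**Figure D4:**
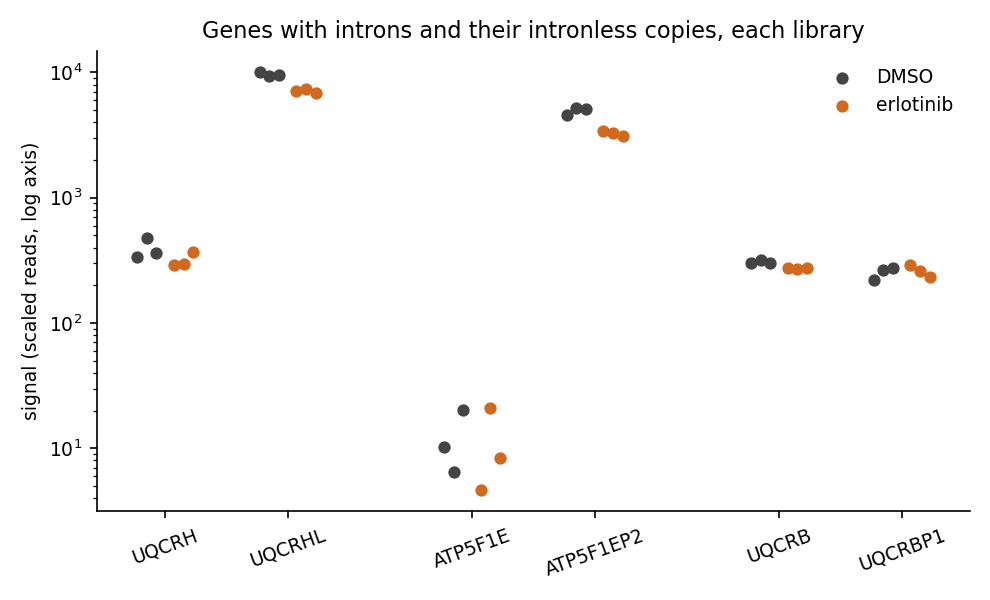
Signal (size-factor-scaled reads, log axis) of 3 genes with introns and of their intronless copies in each of the 6 libraries, DMSO in grey and erlotinib in orange. UQCRHL and ATP5F1EP2 are 24.8 and 400.1 times their parents in DMSO, while UQCRB and UQCRBP1 lie at similar levels.

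Promoters of respiratory genes are known to bind NRF1, GABP of the ETS family, YY1 and the estrogen-related receptor ERR-alpha. RefSeq windows from 250 bases before to 50 after the start (GRCh38.p14) matched 69 of the 86 subunit genes, in 82 windows, and were searched on both strands for fixed letters. The NRF1 core GCGCANGCG was in 23 of 82 windows (28.0%, against 7.52% of all 35116 windows), the ETS motif CCGGAAG in 22 (26.8%, against 10.3%), the YY1 motif AAGATGGCG in 10 (12.2%, against 1.75%) and the ERR motif TCAAGGTCA in 1 (1.22%, against 0.353%). By gene, 14 of the 21 tested genes with the NRF1 letters were lower, 14 of 21 with the ETS letters and 8 of 8 with the YY1 letters, where 43 of all 64 tested genes with a window were lower. A match is a description of letters and not a bound site. Stretches from lower genes are shown with the motif in capitals, on the strand of the gene, as examples of the letters in their context.
SDHB, YY1, chr1:17054003-17054032, minus strand: gtcaggagccAAGATGGCGgcggtggtcgc
NDUFS7, YY1, chr19:1383914-1383943, plus strand: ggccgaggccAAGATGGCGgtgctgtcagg
NDUFB8, YY1, chr10:100529835-100529864, minus strand: gaagaaggtgAAGATGGCGgtggccagggc
UQCRC1, YY1, chr3:48609604-48609633, minus strand: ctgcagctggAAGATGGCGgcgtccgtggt
NDUFS6, NRF1, chr5:1801351-1801380, plus strand: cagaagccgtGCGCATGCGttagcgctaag
UQCRFS1, NRF1, chr19:29213162-29213191, minus strand: cgcctcctcgCGCCTGCGCcgtggttggaa
UQCR10, NRF1, chr22:29767351-29767380, plus strand: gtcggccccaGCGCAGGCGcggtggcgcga
NDUFA12, NRF1, chr12:95003794-95003823, minus strand: acctagctctGCGCACGCGcagagccacca
COX8A, ETS, chr11:63974591-63974620, plus strand: cagctccagaaCTTCCGGccagcgcagcca
In UQCRFS1 and COX8A the letters run on the opposite strand. The YY1 letters in SDHB, NDUFS7, NDUFB8 and UQCRC1 begin 11, 18, 18 and 24 bases into the transcript, while in ATP5PF, also lower, they lie ahead of the start.

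Other genes of respiration gave a wider picture. Of 18 nuclear regulators 17 were tested, and 14 were lower in limma (82.4%, against 35.4% of all genes tested). In limma 0 were higher (35.3% of all genes tested) and the median was -0.67. There were 0 higher also at an unadjusted p under 0.05 and in edgeR and DESeq2. With libraries scaled to their total count 2 were higher (GABPA and ESRRA). PPARGC1B (PGC-1beta), a coactivator of respiratory genes, had 749, 793 and 837 signal units in DMSO and 277, 247 and 293 with erlotinib (-1.54 ± 0.11, adjusted p = 8e-11). Its relative PPRC1 went from 3243, 3209 and 3324 to 1236, 1179 and 1369 (-1.37 ± 0.07, adjusted p = 1.1e-12). TFAM, which packs and transcribes mitochondrial DNA, fell by 1.20 and NRF1 by 0.80, while GABPA (0.06) and ESRRA (0.08) did not pass. PPARGC1A (PGC-1alpha) had 2 reads in DMSO2 and 0 elsewhere.

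Assembly factors build the complexes but are not part of them. Of 51 tested, 35 were lower (68.6%, against 35.4% of all genes tested) and 3 higher (5.88%, against 35.3%). Their median was -0.47. Under total-count scaling 30 factors were lower and 6 higher, and with the GC correction 35 and 7. Those of complex III were lower in 6 of 6 (median -0.998), with UQCC2 at -1.28 and UQCC3 at -1.21. CMC2, a complex IV factor, had 556, 732 and 529 signal units in DMSO and 174, 137 and 236 with erlotinib (-1.75 ± 0.17), and NDUFAF8, a complex I factor, went from 666, 560.0 and 596 to 205, 197 and 181 (-1.64 ± 0.12). The 3 that rose in limma all serve complex IV, while the GC correction also called SDHAF4, a complex II factor, higher. PET100 rose from 29.7 ± 12.7 to 76.6 ± 10.3 (1.41 ± 0.31), SURF1, a factor mutated in Leigh syndrome, from 318 ± 69.8 to 579.8 ± 10.0 (0.89 ± 0.13), and COA5 by 0.50. In the TCA cycle, which feeds complexes I and II, 10 of 13 genes were lower in limma (76.9%, against 35.4% of all genes tested). In limma 0 were higher (35.3% of all genes tested) and the median was -0.58. There were 0 higher also at an unadjusted p under 0.05 and in edgeR and DESeq2. Under total-count scaling 2 were higher (IDH3G and SUCLG2). IDH3A, the catalytic subunit of NAD-dependent isocitrate dehydrogenase, went from 1372, 1650.3 and 1457 to 443, 528 and 391 (-1.72 ± 0.11), fumarase FH fell by 1.03 and citrate synthase CS by 0.79.

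Among 14 genes for cytochrome c and coenzyme Q synthesis 5 were lower (35.7%, near the 35.4% of all genes tested), 3 were higher and the median was -0.05 (0.13 when libraries were scaled to their total count). CYCS, cytochrome c itself, had 11462, 13360.0 and 10786 signal units in DMSO and 2719.5, 2903 and 2713 with erlotinib, a change of -2.09 ± 0.07 (adjusted p = 1.5e-15). It was deeper than the fall of any subunit gene. PDSS1, which starts the side chain of coenzyme Q, went from 106, 143 and 125 to 23.1, 18.8 and 18.7 (-2.56 ± 0.27). COQ8B (132 ± 14.1 to 292 ± 5.87, 1.15 ± 0.15) and COQ8A (784 ± 11.3 to 1445 ± 67.7, 0.88 ± 0.08), both atypical kinases of coenzyme Q synthesis, rose.

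The subunits encoded by mitochondrial DNA had a median change of -0.09, against -0.50 for the nuclear ones, and this difference was not tested. All 13 were tested in limma; 4 were lower (30.8%, against 35.4% of all genes tested) and 0 were higher, with 0 higher also at an unadjusted p under 0.05 and in edgeR and DESeq2, and 1 (COX1) in voom. Scaled to the total count of each library, their median was 0.09, with 2 lower and 3 higher. ND6 went from 57640.4, 42229 and 50472 signal units to 30064, 32292 and 29443 (-0.70 ± 0.09, adjusted p = 3.5e-07), and ND5 from 142739, 97870.3 and 108874 to 70225, 76442 and 71126 (-0.66 ± 0.10, adjusted p = 5.1e-06). COX2 (-0.31, with overlapping groups) and ND4L (-0.30) were the other lower genes. COX1, the catalytic subunit of complex IV, stood at 224512, 136673 and 166814 and then 193242, 216185 and 204494, with overlapping groups (adjusted p = 0.072). The DMSO libraries were spread widely here: the 13 genes held 5.68%, 4.10% and 4.72% of DMSO1 to DMSO3 and 4.86%, 5.27% and 4.79% of Erlo4 to Erlo6. ND6 is read from the opposite strand to ND5, and the strand setting of the counting is not given in the sources used here.

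**Figure D5:**
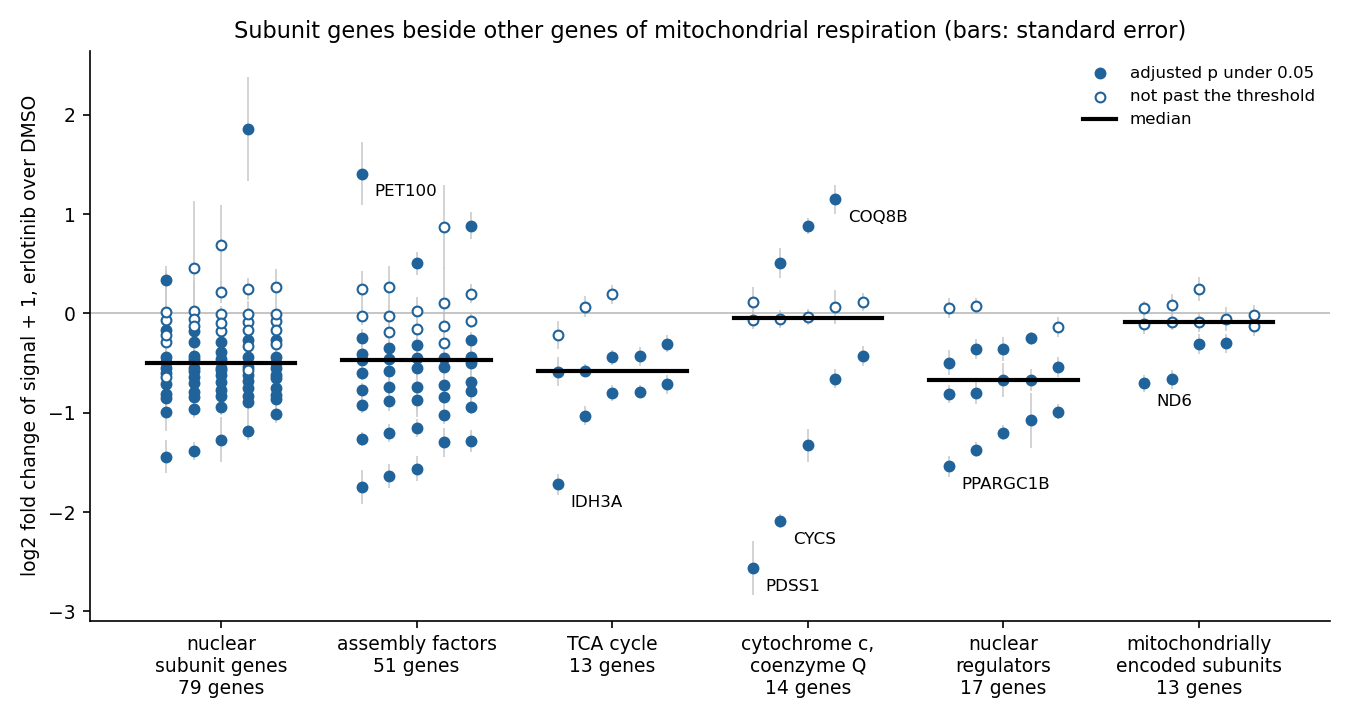
Log2 fold change (erlotinib over DMSO, on log2 of signal + 1) of the tested nuclear subunit genes and of 5 lists of related genes, 1 point per gene with its standard error, black line at the median. The lists of assembly factors, TCA cycle genes and nuclear regulators have medians of -0.47, -0.58 and -0.67 beside -0.50 for the 79 subunit genes and -0.09 for the mitochondrially encoded subunits (0.09 under total-count scaling).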

How the data were processed

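RNA of 3 DMSO and 3 erlotinib libraries was compared. The authors aligned paired-end reads to GRCh38 with Bowtie2 2.3.4, counted uniquely placed reads with featureCounts 1.6.3, converted Entrez identifiers to symbols and tested with DESeq2 1.18.1. The signal deposited by the authors is reads divided by 1 size factor per library: 100% of values were whole reads within 0.001 read once that factor was recovered. The deposited values are scaled and are not counts, so limma 3.58.1 (trend, two-sided, Benjamini-Hochberg) was the main test. It was run on log2(signal + 1) at a mean signal of 10 or more. The alternatives edgeR 4.0.16 and DESeq2 1.42.0 used the recovered reads. Libraries of a group differed by more than sampling noise, with a chi-square of 4.13 to 24.3 for each degree of freedom. Fits were tested on simulated data in which few genes changed. The response to erlotinib was broad, so that test does not bear on the choice of scaling here. Coding windows of 50 bases were matched to GRCh38, and positions came from RefSeq. The members and lists were chosen with earlier results of these data known. Named genes were, per complex, the largest changes, the highest level, genes against the complex's direction, complex II, isoform sets and the largest changes of each related list; others were named after their values were seen. The values of some single genes are not reported here.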

Additional observations from a re-analysis of the deposited data

How the results depend on the processing

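No subunit gene called in one direction was called in the other under any alternative run. The number of lower subunit genes was 52 and lay between 33 and 55 over the alternatives, and all 52 stayed lower with edgeR, DESeq2 or voom on recovered reads; edgeR with TMM called 55. Leaving out 1 library gave 47 to 50 lower and 1 to 3 higher genes, with a median of -0.55 to -0.48. By complex, these fits gave medians of -0.49 to -0.46 for complex I, -0.40 to -0.31 for II, -0.49 to -0.42 for III, -0.45 to -0.23 for IV and -0.79 to -0.67 for V, and 0 to 1 higher genes in complex I and in complex V. They moved the share of the library in subunit genes little: 0.425% to 0.433% in DMSO and 0.331% to 0.334% with erlotinib.

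Scaling to the total count moved the median of all genes from 0.02 to 0.19 and their calls from 5031 lower and 5012 higher to 3955 and 6156. It gave 42 lower and 5 higher subunit genes (3 in complex I) and medians of -0.32 for all subunit genes and -0.28, -0.18, -0.26, -0.15 and -0.51 for complexes I to V; relative to all genes the subunit median was -0.51 there and -0.52 before. A correction for GC content and transcript length gave 47 lower and 6 higher (3 in complex I, 2 in IV), with medians of -0.40 for all subunit genes, -0.41 for I, -0.22 for II, -0.14 for IV and -0.50 for V. With no filter the complex IV median was -0.49. With at least 10 reads in every library, 1 subunit gene was higher (0 in complex IV) and that median was -0.52. At an adjusted p under 0.01, 42 genes were lower and 1 was higher (0 in complex V). With NDUFA4 and NDUFA4L2 under complex I, 1 higher gene was there and 0 in complex IV. With all matching rows the complex IV median was -0.16. Limited to genes with no window elsewhere, chosen after seeing the data, 33 were lower and 1 higher. By complex, 1 was lower in II (median -0.79), 3 in IV (-0.14) and 5 in V (-0.77), with 0 higher in V. The median in III was -0.52. Fewer genes were tested in this set. Without ATP5F1B the share was 0.359% and 0.291%.

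Of 43 named genes tested, 31 kept direction and side of the threshold in all alternatives, 5 lost a call at least once (NDUFA1, ATP5MC2, COX4I1, COX6B1 and NDUFA4) and 8 changed sign, 7 of them not past the threshold as reported. A further call appeared at least once for 3 of these: SDHA (lower in 6 alternatives), COX7A2L (higher in 2) and UQCRBP1 (higher in 1, 0.40 with the GC correction). Of calls that held, the value moved by more than 1.5 times for SDHD (-0.24), ATP5MPL (-0.43), ATP5F1EP2 (-0.26) and UQCRHL (-0.24) with the GC correction, for UQCRHL (-0.26), NDUFA4 (-0.31) and ATP5MC2 (0.52) under total-count scaling, and for ATP5MC2 (0.53) and NDUFA4L2 (1.21) without DMSO2. Under total-count scaling SDHC was at 0.12, SDHA at 0.00783 and COX4I1 at 0.0181. SDHC was at 0.13 with the GC correction and at -0.10 to 0.00272 with 1 library left out (0.00272 without DMSO2). COX6A1 was at -0.0188 with voom, -0.00201 with TMM in limma and -0.25 to 0.32 with 1 library left out. COX7A1 ranged from -0.29 to 0.85 and UQCRBP1 from -0.0619 to 0.12 with 1 library left out. COX7A2L was at -0.0168 with edgeR and TMM, -0.0175 with voom, -0.0155 with TMM in limma, -0.000562 with DESeq2, -0.000463 with edgeR and DESeq2-type factors and -0.0313 to 0.0489 with 1 library left out. NDUFB2-AS1 was at -0.0155 with voom, -0.0154 with TMM in limma, -0.0192 with the GC correction, -0.00103 at a pseudocount of 0.1 and -0.23 to 0.41 with 1 library left out. The causes were not tested.

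No paired analysis was possible because the erlotinib columns carry numbers that the labels do not give, so no block by replicate number could be made. Precision was lower for the low members: the 13 tested genes with a mean signal under 100 had a median standard error of 0.33, against 0.10 for the 66 at 100 or more. Of the former 3 were lower (median change -0.31) and of the latter 49 (median -0.54), and the part of depth in this was not tested.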
